A study of Mus musculus with 15 samples.

Results

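Integrins and laminins were followed as a family of 37 genes in mouse stomach tumors and normal stomach. A gene was a member when its symbol in the deposited count table named an integrin alpha chain, an integrin beta chain or a laminin chain and it had at least 10 counts in at least 3 libraries. The 37 members are 18 integrin alpha chains, 8 integrin beta chains and 11 laminin chains, of 36144 genes in the table. All 37 symbols that matched the patterns met the count rule, and all 37 were among the 16224 genes tested.

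The study profiled bulk RNA from stomach in 15 libraries that fall into 5 groups of 3, which are normal stomach and tumors of 4 sites. The sites are antrum, corpus and 2 at the cardia, labelled as its boundary with the greater or with the lesser curvature and called greater curvature and lesser curvature below. All 5 groups, the normal tissue included, came from C57BL/6 mice aged 7 to 8 weeks that carried Pou2f3-CreERT, floxed Rb1 and Trp53 (Rb1fl/fl and Trp53fl/fl) and LSL-MycT58A. All had received tamoxifen by intraperitoneal injection at 50 mg/kg, and the labelled time is 5 weeks. The Cre is driven from Pou2f3, a gene known for tuft cells. The labels number the libraries as biological replicates but do not say which part of the stomach the normal tissue came from, nor which libraries share an animal.

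Laminins are heterotrimers of 1 alpha, 1 beta and 1 gamma chain, and they form the polymer sheet of the basement membrane on which epithelium, endothelium, muscle and nerve rest. Integrins are heterodimers of 1 alpha and 1 beta chain that bind laminins, collagens, fibronectin and other ligands outside the cell and link them to the actin or keratin cytoskeleton within. In the stomach, epithelial cells are known to hold to laminins through integrins alpha 3 beta 1 and alpha 6 beta 4, the smooth muscle of the wall uses alpha 1, alpha 7, alpha 8 and alpha 9 chains with beta 1, and leukocytes carry the beta 2 and beta 7 integrins.

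Library totals ran from 7957165 to 21564972 counts, so that 1 count was worth 0.0478 to 0.112 CPM (counts over library size times 1e+06, scaled with edgeR's TMM factors). The normal libraries held the stomach's parietal and chief cell markers at 67275 to 145370 CPM in sum, and the tumors at 16.5 to 88119. Summed markers of epithelium were 220 CPM in antrum 1 and 162 in lesser curvature 1, against 1724 to 10632 in the other 10 tumors and 3799 to 11857 in the normals. Normal 2 held squamous epithelial markers at 4788 CPM, with 1.91 and 1.76 in the other normals. The lesser curvature tumors held them at 356 to 1696 CPM. The antrum tumors held them at 0.307 to 29.6 CPM, the greater curvature at 4.81 to 122 and the corpus at 4.92 to 65.1. The part of squamous epithelium in the members' values was not tested. Calls that changed without antrum 1, lesser curvature 1 or normal 2, each left out alone, are given below for the called members. They are also given for Lama3, Lamb3, Itga2, Itga3, Itga6, Itgb4 and Itgax. No test without these libraries is given for the other members, such as Itgb6.

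Per length, in TPM (the transcript share of each library), Itgb1 was the most abundant member in both kinds of tissue, with a median of 131 TPM in the normals (124 to 133) and 150 in the tumors (113 to 178). Itgb1 encodes the beta 1 chain that pairs with many alpha chains. Itga6, the alpha 6 chain of the laminin receptors, came next at 106 TPM in the normals (100 to 117) and 131 in the tumors, where it ranged from 17.3 to 210. Itgad was the least abundant in both, with a median of 0.02 TPM in normal tissue and 0.23 in the tumors.

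The comparison of all 12 tumors with the 3 normals gave the average difference over the 4 tumor sites. It called 11 of the 37 members, or 29.7%, at an adjusted p under 0.05, and it called 31.9% of all genes tested. Of the 11, 5 were higher in the tumors (16.2% of all genes were called higher) and 6 were lower (15.7% of all genes). The higher members were Lama5, Itgb2, Lamb1, Itgad and Lamc1. Of these, Itgad met the count rule through the tumors alone. The lower members were Itga1, Itga9, Itga8, Lamb2, Itga2b and Itgb1. The median log2 fold change was -0.24 over the members and -0.04 over all genes, with 15 members above 0 and 22 below. In bulk tissue, fewer cells of a type and less RNA per cell cannot be told apart. By role, 3 of 11 laminin chains were higher and 1 was lower, while of the integrin chains 1 alpha and 1 beta chain were higher and 4 alpha chains and 1 beta chain were lower.

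**Figure D1:**
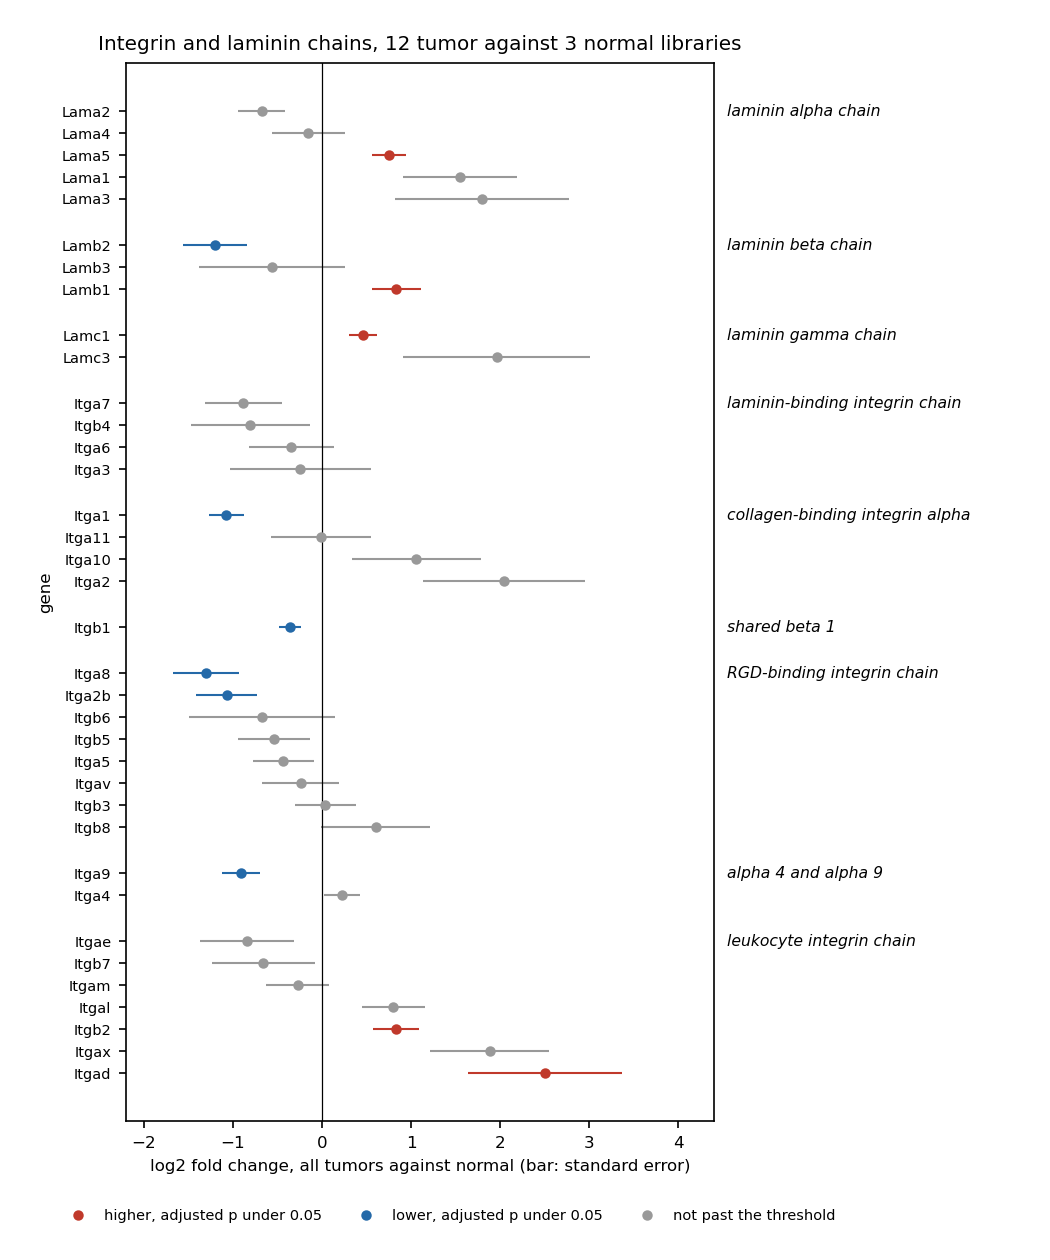
Log2 fold change of each of 36 members in all 12 tumors against the 3 normals (x axis; bar, standard error), in groups by role (y axis), with red for the 5 called higher, blue for the 6 called lower and grey for the rest. The called members with the smallest standard errors, such as Itgb1 and Lamc1, differ by less than 0.5, while Lama3 and Itga2 sit near 2 with bars of about 1.

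These calls depended on the scale and on single libraries. On the TPM table the median of all genes was shifted by 0.43 on the log2(TPM + 1) scale. There 40.9% of genes were called, 91.2% of those higher (50.8% on the counts), and 7 members were higher and none lower. Leaving out normal 3 left 0 members called higher and 3 lower, leaving out normal 2 left 3 and 1, and leaving out normal 1 left 1 and 4. Calls over all genes fell as well, from 31.9% with every library to 18.7% without normal 1 and 17.4% without normal 2. Without antrum 3 or corpus 3, 2 members were called higher, and without corpus 2, lesser curvature 2 or lesser curvature 3, 3 were. Without antrum 1 and lesser curvature 1 together, a setting chosen after seeing the data, 6 members were called higher and 4 lower.

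In 7 of the 37 members, the 12 tumors lay all above (3 members) or all below (4 members) the 3 normals in CPM. For all genes tested that share was 16.2%, made up of 9.58% above and 6.65% below. The 3 above were Lamc1, Itgb2 and Itgad, and the 4 below were Itga1, Itga9, Itgb1 and Lama2. In TPM all 12 tumors also lay above the normals for those 3. Of them, Itgad met the count rule through the tumors alone, so its separation is no independent support. For the 4 below, the tumors under all normals in TPM were 10, 2, 1 and 8 in that order, and for Itgb1 11 lay above.

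**Figure D2:**
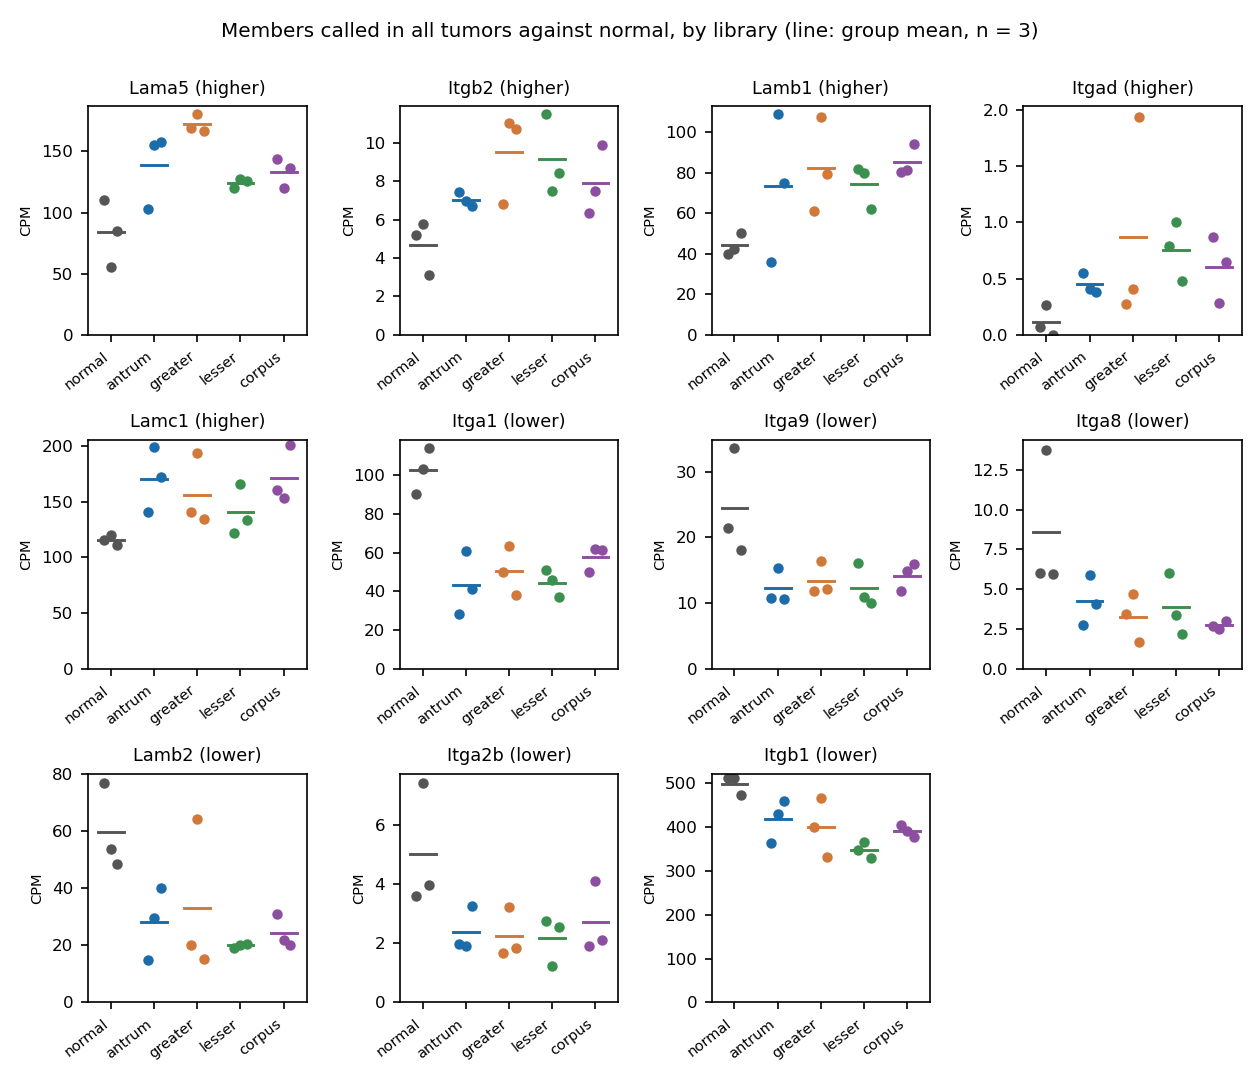
CPM of the 11 members called in all tumors against normal, 1 panel each, with a point for each library and a line at the group mean (n = 3). The tumor points of Itga1, Itga9 and Itgb1 all lie under the normal points, and those of Lamc1, Itgb2 and Itgad all lie above them.

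Among the laminin alpha chains, Lama5 rose. Lama5 encodes alpha 5, the alpha chain of laminin-511 and laminin-521 in most adult basement membranes. It was measured at 110, 55.9 and 85.2 CPM in normals 1 to 3. The tumors ran from 103 CPM in antrum 1 through a median of 140 to 181 in greater curvature 2. Antrum 1 was the tumor that lay below a normal, and the other 11 lay above all 3. On the log2 scale the difference was 0.75 ± 0.19 (SE, edgeR, adjusted p = 0.0127). It missed the threshold when normal 2 (0.53, adjusted p = 0.0570) or normal 3 (0.76, adjusted p = 0.0502) was left out.

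Lamb1 and Lamc1, whose products join alpha 5 in laminin-511, also rose. Lamb1 was at 40.0, 42.1 and 50.3 CPM in normal tissue and at 36.1 (antrum 1) to 109 (antrum 2) in the tumors, with a median of 80.1. Its log2 fold change was 0.83 ± 0.27 (adjusted p = 0.0360), and 11 of 12 tumors lay above the normals. Lamc1, the gamma chain of most laminins, was at 116, 120 and 112 CPM in normal tissue and at 122 (lesser curvature 1) to 201 (corpus 3) in the tumors, a small but complete separation. Its log2 fold change was 0.46 ± 0.16 (adjusted p = 0.0450). Lamb1 lost its call without normal 1, 2 or 3, antrum 3, lesser curvature 1, corpus 2 or corpus 3 (adjusted p from 0.0508 to 0.117). Lamc1 lost its call without normal 1, 2 or 3, greater curvature 1, lesser curvature 2, corpus 2, antrum 3, lesser curvature 3 or corpus 3 (adjusted p from 0.0518 to 0.145). With no filter on low counts, edgeR did not call Lamc1 either (adjusted p = 0.0587).

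Lamb2 fell. It encodes the beta 2 chain that replaces beta 1 in laminin-521 and is known from vascular, muscle and nerve basement membranes. It was at 77.0, 53.6 and 48.6 CPM in normal tissue and at 14.9 (antrum 1) to 64.2 (greater curvature 2) in the tumors, with a median of 20.4. The other 11 tumors reached no higher than 40.0 CPM. Its log2 fold change was -1.20 ± 0.36 (adjusted p = 0.0248), and it was no longer called when normal 1 (-0.98, adjusted p = 0.114), normal 2 (-1.27, 0.0618) or normal 3 (-1.33, 0.0546) was dropped. Limma on the TPM table did not call Lamb2 (adjusted p from 0.130 to 0.189). The ratio of Lamb1 to Lamb2 within a library does not depend on library scaling. It was 0.519 to 1.03 in normal tissue and 1.67 to 5.24 in the tumors, above all normals in 12 of 12 in CPM and in TPM. This ratio, like those further on, was picked after the values were seen, was not tested and describes these libraries.

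The promoters of the members that moved in opposite directions are shown for their letters, as the 300 bases around the start of the gene in RefSeq (GRCm38.p6), 5′ to 3′ on the gene's strand. Capitals mark each GC box, GGGCGG or its reverse complement CCGCCC, the motif known for Sp1-family factors. Lama5 is at chr2:180225810-180226109 (minus strand), Lamb1 at chr12:31265043-31265342 (plus strand), Lamb2 at chr9:108479612-108479911 (plus strand) and Itga1 at chr13:115101915-115102214 (minus strand).
Lama5: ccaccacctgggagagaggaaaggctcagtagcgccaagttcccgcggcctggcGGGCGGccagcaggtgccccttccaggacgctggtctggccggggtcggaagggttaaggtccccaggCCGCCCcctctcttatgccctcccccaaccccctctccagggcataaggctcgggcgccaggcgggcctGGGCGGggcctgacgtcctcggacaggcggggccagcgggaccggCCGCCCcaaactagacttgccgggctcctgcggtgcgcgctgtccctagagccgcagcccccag
Lamb1: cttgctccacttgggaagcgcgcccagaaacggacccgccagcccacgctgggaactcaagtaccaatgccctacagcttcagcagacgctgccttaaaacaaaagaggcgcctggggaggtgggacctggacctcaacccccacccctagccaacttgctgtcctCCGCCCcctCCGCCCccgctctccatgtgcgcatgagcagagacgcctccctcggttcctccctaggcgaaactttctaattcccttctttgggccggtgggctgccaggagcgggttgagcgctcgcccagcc
Lamb2: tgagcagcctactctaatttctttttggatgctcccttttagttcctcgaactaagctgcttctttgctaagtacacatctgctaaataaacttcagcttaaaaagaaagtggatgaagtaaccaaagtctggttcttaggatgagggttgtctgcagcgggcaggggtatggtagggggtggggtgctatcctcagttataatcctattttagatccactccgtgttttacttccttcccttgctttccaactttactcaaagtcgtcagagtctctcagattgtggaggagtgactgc
Itga1: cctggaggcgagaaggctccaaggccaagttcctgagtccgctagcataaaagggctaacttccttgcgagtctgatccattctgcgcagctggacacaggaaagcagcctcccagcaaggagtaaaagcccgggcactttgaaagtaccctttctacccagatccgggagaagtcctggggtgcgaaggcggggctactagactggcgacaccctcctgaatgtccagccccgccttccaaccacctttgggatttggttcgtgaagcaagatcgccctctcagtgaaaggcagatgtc
The Lama5 window held 4 GC boxes and was 72.7% G and C, and the Lamb1 window held 2 and was 63.7% G and C. The Lamb2 and Itga1 windows held none and were 44.0% and 56.7% G and C. The table of promoters held 23 of the 37 members in 26 windows. It held 2 of the 5 members called higher, both with a GC box, and 6 of the 6 called lower, of which only the Itgb1 window had 1. The Itgb1 window is not among those printed. The Itga9 window, from 118711442 on chromosome 9, lies inside the gene's GENCODE span of 118606690 to 118901003, so it marks another start. A GC box was found in 12 of the 26 member windows (46.2%) and in 35.7% of 32851 windows of the same length, whose median G and C content was 52.7%. The searches for TGANTCA (AP-1), CACGTG (an E-box), TATAAA and the CArG box, on both strands, matched 3 (11.5%), 0, 0 and 2 (7.69%) of the 26 member windows. Among all 32851 windows the shares were 7.81%, 7.15%, 13.6% and 1.63% in that order. A match is a description of the letters and not a binding site.

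The other laminin chains given here did not pass the test by edgeR. Lama1 was at 3.31 to 4.36 CPM in normal tissue and 1.87 to 21.6 in the tumors (log2 fold change 1.55 ± 0.64, adjusted p = 0.0802), and it encodes alpha 1, best known from embryonic basement membranes. Lama2, the alpha 2 chain of muscle laminin, was at 19.7 to 21.9 CPM in normal tissue and 6.70 to 19.4 in the tumors (-0.68 ± 0.27, adjusted p = 0.0679). Lamc3, the gamma 3 chain, spread most among the tumors, from 0.210 CPM in greater curvature 3 to 23.8 in antrum 3, against 0.785 to 1.91 in the normals (1.96 ± 1.05, adjusted p = 0.158). Lama4, the alpha 4 chain of endothelial basement membranes, was at 27.3 to 40.0 CPM in normal tissue and 11.2 to 71.1 in the tumors (-0.15 ± 0.41, adjusted p = 0.783). These chains are given whatever their test, and were picked for their values.

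The laminin chains Lama3 and Lamb3 and the receptor chains Itga3 and Itgb4 had their lowest tumor levels in the 2 tumors with the lowest epithelial markers, antrum 1 and lesser curvature 1. Lama3 and Lamb3 encode the alpha 3 and beta 3 chains of epithelial laminin, and Itga3, Itga6 and Itgb4 encode the receptor chains that anchor cells to it. Lamb3 was at 59.7 to 123 CPM in the normals, at 5.22 and 4.87 in those tumors, and at 25.5 to 198 in the other 10. Itga3 was at 78.5 to 166 CPM in the normals, at 5.78 and 7.57 in those tumors and at 56.2 to 259 in the others. Itgb4, whose product builds hemidesmosomes, was at 89.2 to 226 CPM in the normals, at 14.4 and 8.25 in those tumors and at 48.5 to 207 in the others.

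None of Lamb3, Itga3, Itgb4 and Itga6 passed the test by edgeR. The log2 fold changes were -0.56 ± 0.82 for Lamb3 (adjusted p = 0.601), -0.24 ± 0.79 for Itga3 (0.825), -0.80 ± 0.66 for Itgb4 (0.348) and -0.34 ± 0.47 for Itga6 (0.581). The ranges of tumors and normals overlapped for each. None of the 4 was called under any of 24 alternatives, those without antrum 1, lesser curvature 1 or normal 2 included. Over these the log2 fold change ran from -1.10 to -0.29 for Lamb3 (lowest adjusted p 0.239) and from -0.52 to 0.03 for Itga3 (0.617). It ran from -1.12 to -0.35 for Itgb4 (0.218) and from -0.59 to 0.03 for Itga6 (0.231). Itga6 kept a level of 129 CPM in antrum 1, where Itgb4 and Itga3 were below 15, and was at 30.0 in lesser curvature 1. The ratio of Itga6 to Epcam, an epithelial surface marker, was 11.5 in antrum 1 and 0.869 to 3.02 in the other 11 tumors, against 1.12 to 1.21 in the normals. It lay above all normals in 8 of 12 tumors and below them in 4.

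**Figure D3:**
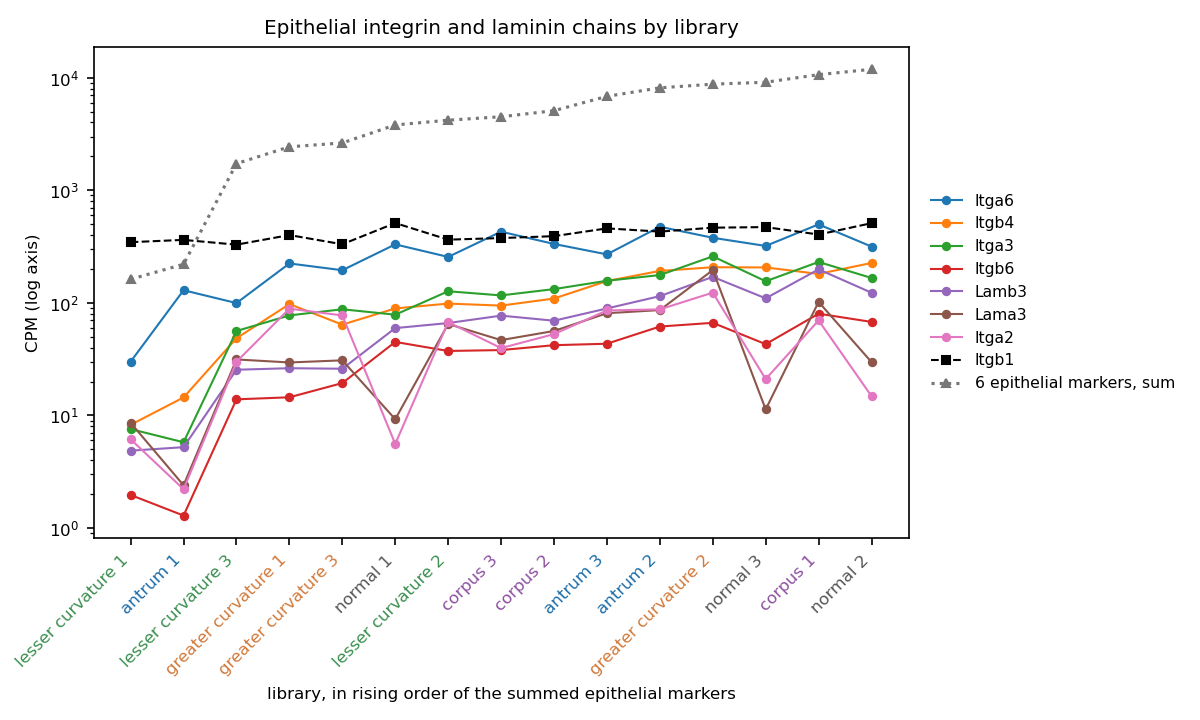
CPM on a log axis (y) of 7 epithelial integrin and laminin chains, of Itgb1 (dashed) and of the sum of 6 epithelial markers (dotted), with the 15 libraries in rising order of that sum (x). Lesser curvature 1 and antrum 1 lie at the left with the lowest values of Lamb3, Itga3 and Itgb6, Lama3 and Itga2 drop again in the 3 normals, and Itgb1 stays between 329 and 511 CPM.

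Relative to Lamb3, Lama3 stood higher in the tumors. It was at 9.26, 29.7 and 11.3 CPM in the normals, at 2.40 in antrum 1 and 8.60 in lesser curvature 1, and at 29.5 to 195 in the other 10 tumors, of which 9 lay above all normals. Its log2 fold change was 1.80 ± 0.98 (adjusted p = 0.165), and it was called without antrum 1 and lesser curvature 1 together (2.06, adjusted p = 0.0470), a setting chosen after the data were seen. Under the other 23 alternatives, that without normal 2 included, Lama3 was not called. The ratio of Lama3 to Lamb3 was 0.103 to 0.242 in normal tissue and 0.459 to 1.77 in the tumors. The ratio of Lama3 to Epcam was 0.0336 to 0.106 in normal tissue and 0.194 to 0.449 in the tumors. Both ratios lay above all normals in 12 of 12 tumors in CPM and in TPM, antrum 1 and lesser curvature 1 included. In TPM the ratio of Lama3 to Lamb3 was 0.179 in antrum 1, close to the highest normal at 0.172. A ratio of CPM between genes of different length is read here only between libraries.

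**Figure D4:**
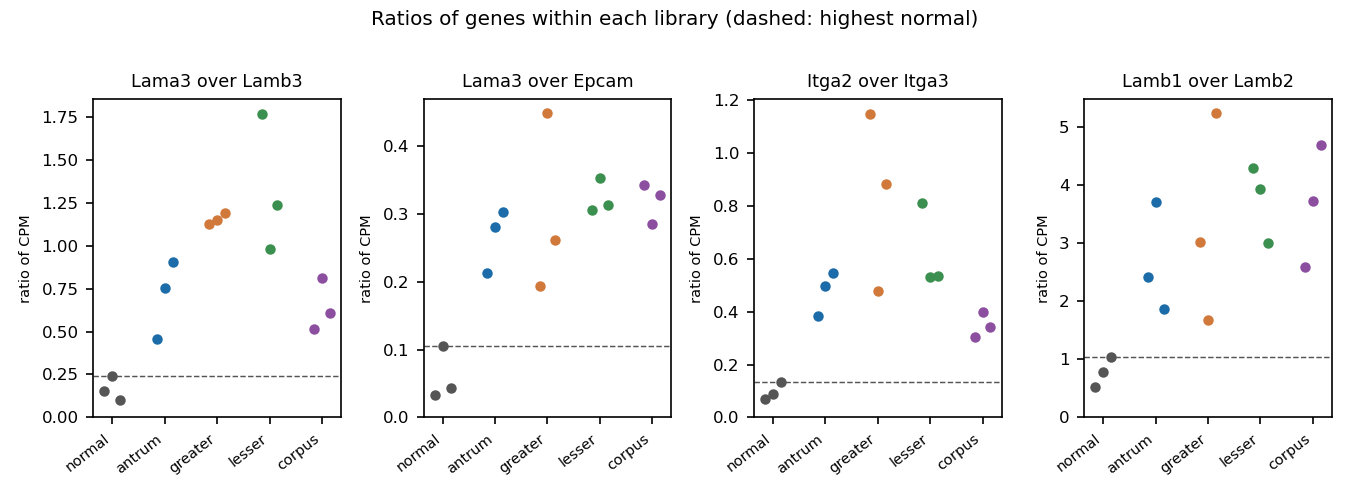
Ratio of the CPM of 2 genes within each library (y axis) for normals and the 4 tumor sites (x axis), with a point for each library and a dashed line at the highest normal. All 12 tumors lie above the line for Lama3 over Lamb3, Lama3 over Epcam, Itga2 over Itga3 and Lamb1 over Lamb2. These ratios were picked after their values were seen, and some others did not separate. Itgb4 over Itga6 lay above all normals in 0 of 12 tumors and below them in 2. Itga3 over Epcam lay above in 6 and below in 1, and Itgb4 over Epcam above in 1 and below in 1.

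Among the collagen-binding alpha chains, Itga1 fell and Itga2 was higher in most tumors without passing the test by edgeR. Itga1 encodes alpha 1, a receptor for basement membrane collagen that is known from smooth muscle and other stromal cells. It was at 90.1, 103 and 114 CPM in normal tissue and at 28.2 (antrum 1) to 63.4 (greater curvature 2) in the tumors, with no overlap in CPM (in TPM, 10 of 12 tumors below all normals). This is a log2 fold change of -1.07 ± 0.19 (adjusted p = 0.00379), a level 2.10-fold lower. Of the 11 called members it was the only one whose call held when each of the 15 libraries was left out in turn (adjusted p up to 0.0222), and on the TPM table it missed the threshold (-0.48 on the log2(TPM + 1) scale, adjusted p = 0.0827). A predicted gene on the same strand shares exon sequence with it in GENCODE M21.

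Itga2, the alpha 2 chain of the epithelial collagen receptor, was at 5.58, 14.8 and 21.0 CPM in the normals. In the tumors it was at 2.21 in antrum 1 and 6.14 in lesser curvature 1, and at 29.9 to 123 in the other 10, all above the normals. Its log2 fold change was 2.04 ± 0.91 (adjusted p = 0.0983). It was called without antrum 1 (2.18, adjusted p = 0.0232) and without antrum 1 and lesser curvature 1 together (2.31, adjusted p = 0.00752), and with all libraries by DESeq2 (2.02, adjusted p = 0.0218) and by limma on log2(TPM + 1) (1.92, adjusted p = 0.0346). These were 4 of 24 alternatives, and the other 20 did not call Itga2. The ratio of Itga2 to Itga3, another epithelial alpha chain, was 0.0712 to 0.135 in normal tissue and 0.303 to 1.15 in the tumors, higher in 12 of 12.

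Itga10 and Itga11, the collagen receptors known from cartilage and from fibroblasts, stood out in 1 library and were picked after their values were seen. Itga10 was at 36.2 CPM in greater curvature 2, at 2.23 to 6.83 in the other tumors and at 1.47 to 3.23 in the normals. Itga11 was at 15.9 CPM in greater curvature 2, at 0.953 to 3.19 in the other tumors and at 2.27 to 3.13 in the normals. The same library held Ibsp, the bone sialoprotein that integrins bind through its RGD sequence, at 949 CPM (18624 counts), against 0 to 46.3 CPM in the other tumors and 1, 0 and 0 counts in the normals. It held Col1a1 at 2769 CPM, against 148 to 560 in the other tumors, and summed fibroblast markers at 6787 CPM. Greater curvature 2 was the highest tumor for 22 of the 37 members. Antrum 1 was the lowest for 16 and lesser curvature 1 for 8. The same count over all genes was not made, so these counts are not read as a trait of the family.

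Itgb1 fell by little on the scaled counts. It was at 511, 510 and 471 CPM in normal tissue and at 329 (lesser curvature 3) to 465 (greater curvature 2) in the tumors, with no overlap in CPM. In TPM the order was nearly the reverse, with 11 of 12 tumors above all normals and 1 below. The log2 fold change was -0.36 ± 0.12 (adjusted p = 0.0428), or 1.28-fold lower, but on the log2(TPM + 1) scale, where all genes were shifted up by 0.43, the sign turned to 0.20 (adjusted p = 0.205). The call was lost when any 1 of 11 libraries was left out (adjusted p from 0.0540 to 0.129): normal 1, 2 or 3, antrum 1 or 2, greater curvature 1 or 3, lesser curvature 1 or 3, and corpus 2 or 3. With no filter on low counts, edgeR did not call Itgb1 either (adjusted p = 0.0754).

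Among the chains that bind the RGD sequence of fibronectin, vitronectin and similar ligands, Itga8 and Itga2b fell, and the other 6 did not pass. Itga8 encodes alpha 8, known from smooth muscle and mesenchymal cells. It was at 6.02, 13.8 and 5.96 CPM in normal tissue and at 1.68 (greater curvature 3) to 6.04 (lesser curvature 1) in the tumors. Of the 12 tumors, 11 lay below the normals in CPM and 5 in TPM. Its log2 fold change was -1.30 ± 0.37 (adjusted p = 0.0204). Dropping normal 2, the normal with the squamous markers, ended the call (-0.79, adjusted p = 0.189). Limma on the TPM table did not call Itga8 (adjusted p from 0.188 to 0.232). An opposite-strand gene shares exon sequence with Itga8, and whether the counting used strand is not stated in these sources.

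Itga2b, the alpha chain of the platelet fibrinogen receptor, was at 3.60, 7.41 and 3.98 CPM in normal tissue and at 1.23 to 4.09 in the tumors. The log2 fold change was -1.07 ± 0.35 (adjusted p = 0.0351), and 11 of 12 tumors lay below the normals in CPM. In TPM 5 lay below and 1 above. The call was lost without normal 2 or 3, antrum 2, greater curvature 1 or 3, or corpus 3 (adjusted p from 0.0519 to 0.241). It was also lost by edgeR with no filter on low counts (adjusted p = 0.0593) and by limma on the TPM table (adjusted p from 0.341 to 0.424). Itgb3, its partner chain, was at 13.1 to 27.7 CPM in normal tissue and 8.91 to 34.9 in the tumors (0.04 ± 0.34, adjusted p = 0.939). The platelet marker Pf4 was at 2.62 to 5.22 CPM in normal tissue and 1.90 to 7.64 in the tumors. Ppbp, the other gene of the platelet list that could be tested (2 of 6), was called higher (3.13 ± 1.1, adjusted p = 0.0471), with 0.229 to 0.367 CPM in normal tissue and 0.0791 to 14.3 in the tumors. For Ppbp 10 tumors lay above the normals and 2 below. The part of platelets in the level of Itga2b was not tested.

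The alpha 5 and alpha v chains and their beta partners ranged widely. The log2 fold changes were -0.44 ± 0.34 for Itga5, the fibronectin receptor (adjusted p = 0.321), -0.24 ± 0.44 for Itgav (0.680), -0.54 ± 0.41 for Itgb5 (0.299), -0.68 ± 0.82 for Itgb6 (0.527) and 0.60 ± 0.61 for Itgb8 (0.444). Itgb6, the epithelial partner of alpha v, was at 1.29 CPM in antrum 1 and 1.97 in lesser curvature 1, against 13.9 to 80.1 in the other tumors and 43.0 to 67.7 in the normals.

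Itga9 fell and Itga4 did not pass the test. Both alpha chains are known to bind VCAM-1, with alpha 9 known from smooth muscle and epithelium and alpha 4 from leukocytes. Itga9 was at 21.5, 33.7 and 18.1 CPM in normal tissue and at 9.93 to 16.4 in the tumors, with no overlap in CPM. In TPM 2 of 12 tumors lay below all normals and 4 above. The log2 fold change was -0.91 ± 0.21 (adjusted p = 0.00990), but on the log2(TPM + 1) scale, against the shift of 0.43 for all genes, it was 0.07 (adjusted p = 0.835). Dropping normal 2 ended the call (-0.60, adjusted p = 0.0881). Itga4 was at 6.80 to 8.20 CPM in normal tissue and 6.48 to 10.8 in the tumors (0.22 ± 0.20, adjusted p = 0.398).

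Smooth muscle markers fell as well. All 10 markers of the list, among them Myh11, Acta2 and Des, were lower in the tumors, and none was at 0 in every library of a group. Their sum was 4633 to 6519 CPM in normal tissue and 194 to 1194 in the tumors. Itga7, the muscle laminin receptor, was at 19.2 to 66.4 CPM in normal tissue and 10.1 to 39.4 in the tumors (-0.88 ± 0.43, adjusted p = 0.128). The part of smooth muscle in the values of Itga1, Itga8, Itga9, Lamb2 and Lama2 was not tested. The endothelial list, whose cells also carry beta 1 integrins and laminins, had 2 of 7 genes lower, with sums of 108 to 245 CPM in normal tissue and 66.6 to 222 in the tumors.

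Of the 7 leukocyte integrin chains, Itgb2 and Itgad rose. Itgb2 encodes beta 2 (CD18), the shared partner of the alpha L, alpha M, alpha X and alpha D chains. It was at 5.22, 5.76 and 3.14 CPM in normal tissue and at 6.32 (corpus 1) to 11.5 (lesser curvature 1) in the tumors, with no overlap. The log2 fold change was 0.83 ± 0.26 (adjusted p = 0.0304). Itgb2 missed the threshold when normal 1 (0.91, adjusted p = 0.0647), normal 3 (0.61, adjusted p = 0.147), or both antrum 1 and lesser curvature 1 (0.77, adjusted p = 0.0552) were dropped.

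Itgad, the alpha D chain of tissue macrophages, had 1, 3 and 0 counts in normal tissue and 4 to 37 in the tumors, which is 0 to 0.262 and 0.279 to 1.94 CPM. It was called higher (adjusted p = 0.0439), but at so few counts the fitted fold change rests on the prior count and is not given. Its call was lost with the replicate number as a block (adjusted p = 0.0638), and when normal 1 or 3, antrum 1, 2 or 3, lesser curvature 1, 2 or 3, or corpus 1 or 3 was left out (adjusted p from 0.0520 to 0.145). With no filter on low counts, edgeR did not call Itgad either (adjusted p = 0.0585). Exons of 4 other genes overlap it, 3 of them on the opposite strand.

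The other alpha partners of beta 2 did not pass by edgeR. Itgax, the alpha X chain (CD11c) of dendritic cells and macrophages, was at 0.514, 4.10 and 0.535 CPM in normal tissue and at 2.81 to 10.8 in the tumors (1.88 ± 0.67, adjusted p = 0.0501). Normal 2 was the library that overlapped the tumors, and without it Itgax was called (3.57, adjusted p = 0.00697), as it was without greater curvature 1 (1.97, adjusted p = 0.0449). Itgax was also called by DESeq2 (1.86, adjusted p = 0.00733), by limma on the TPM table (adjusted p from 0.00219 to 0.00775) and by edgeR with the replicate number as a block (2.25, adjusted p = 0.0162). The other 17 of 24 alternatives did not call Itgax. Itgal, the alpha L chain of lymphocytes, was at 1.07 to 2.79 CPM in normal tissue and 2.20 to 7.32 in the tumors (0.80 ± 0.36, adjusted p = 0.0993), and limma on the TPM table called it (0.61 on the log2(TPM + 1) scale, adjusted p = 0.0210). The other 21 of 24 alternatives did not call Itgal. Itgam, the alpha M chain (CD11b) of neutrophils and macrophages, was at 3.49 to 10.2 CPM in normal tissue and 3.07 to 12.3 in the tumors (-0.27 ± 0.35, adjusted p = 0.554). Itgae and Itgb7, the chains of the mucosal lymphocyte integrin that binds E-cadherin, were at 0.295 to 2.85 and 0.344 to 2.60 CPM in the tumors, and neither passed (adjusted p = 0.224 and 0.374).

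Macrophage markers were higher as well. Of 7 markers 4 were higher, Cd14, Cd68, C1qb and C1qa, and none was lower. Their sum was 93.2 to 101 CPM in normal tissue and 112 to 235 in the tumors, with no marker at 0 in every library of a group. Of the neutrophil list 5 of 7 genes could be tested and 1, Csf3r, was higher, with sums of 10.3 to 20.2 CPM in normal tissue and 5.06 to 87.6 in the tumors. Of the T and NK cell list 2 of 8 could be tested and 1, Cd4, was higher, with sums of 2.75 to 4.54 CPM in normal tissue and 4.67 to 10.3 in the tumors. The part of these cells in the leukocyte chains was not tested.

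Each tumor site was then compared with the same 3 normals, so the comparisons share those libraries. In the antrum 2 members were called, Itga1 (-1.25 ± 0.27, adjusted p = 0.0171) and Itga9 (-0.998 ± 0.29, 0.0407), both lower, against 14.7% of all genes (9.59% higher, 5.08% lower). In the greater curvature 2 were called, Lama5 higher (1.04 ± 0.23, adjusted p = 0.0232) and Itga1 lower (-1.02 ± 0.27, 0.0379), against 9.26% of all genes (6.50% higher, 2.76% lower). In the lesser curvature 6 were called against 33.6% of all genes (18.2% higher, 15.3% lower). Itgb2 (0.96 ± 0.31, adjusted p = 0.0345) and Itgad (0.0493) were higher there, the latter a member through its tumor counts alone. Itga1 (-1.20 ± 0.27, adjusted p = 0.00904), Itga9 (-0.99 ± 0.29, 0.0244), Itgb1 (-0.52 ± 0.16, 0.0288) and Lamb2 (-1.58 ± 0.50, 0.0315) were lower. In the corpus edgeR called 0 members, against 3.54% of all genes (2.35% higher, 1.19% lower). At an unadjusted p under 0.05 were 12 members and 3901 of the 16224 genes. DESeq2 called 4 members higher and 3 lower in the corpus, against 13.8% of all genes. In the antrum edgeR called 0 members higher, with 4 higher at an unadjusted p under 0.05 (5597 of all genes in either direction). DESeq2 called 2 higher there, against 27.6% of all genes in either direction.

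**Figure D5:**
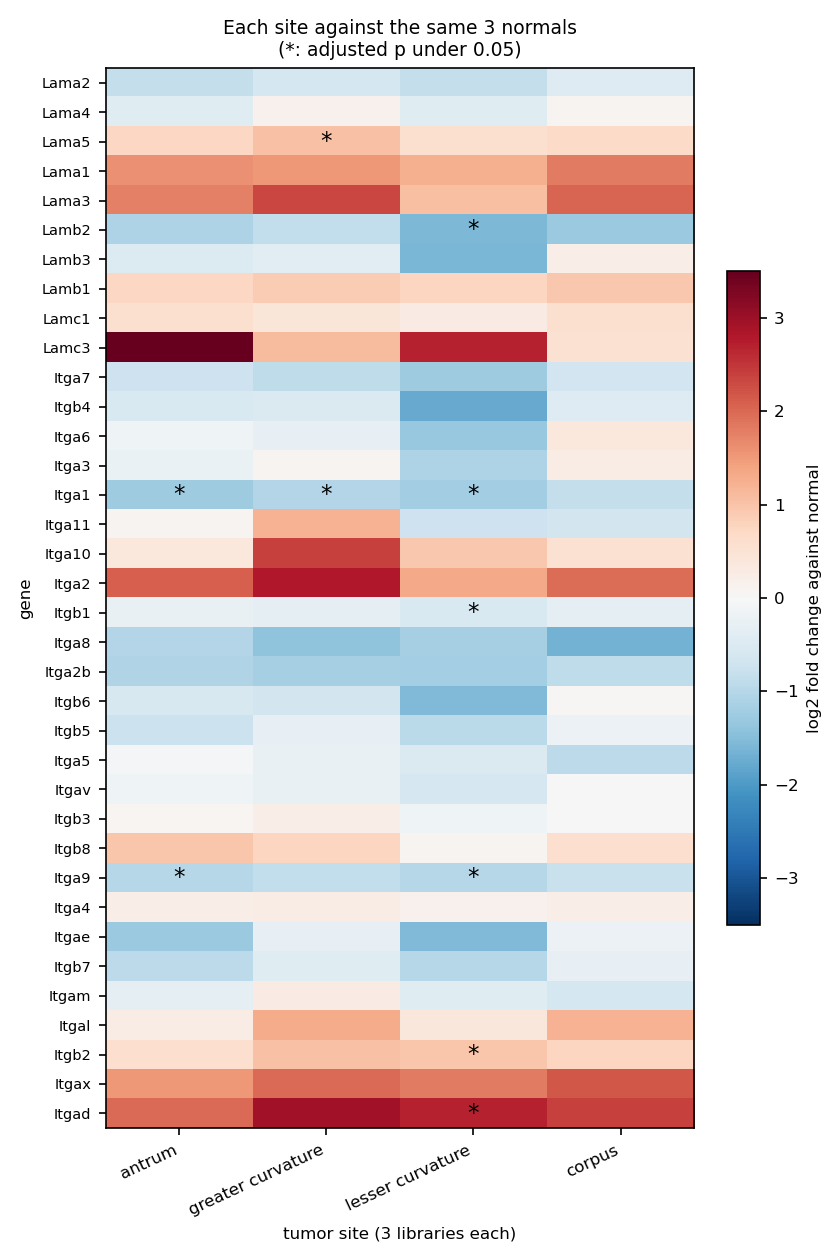
Log2 fold change against the same 3 normals (color) for each of 36 members (rows) at each of the 4 tumor sites (columns, 3 libraries each), with a star at an adjusted p under 0.05. Itga1 is blue at all 4 sites and starred at 3, and the epithelial chains Lamb3, Itgb4, Itga6 and Itgb6 are bluest in the lesser curvature.

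No member passed the test among the 4 sites. The test among sites called 0 members and 0 of the 16224 genes by edgeR, with 0 members and 947 genes at an unadjusted p under 0.05, and DESeq2 called 0 members and 164 genes. The span between the lowest and the highest site was a log2 fold change of 0.42 for Itga1 and 0.22 for Lamb1, and it was 2.97 for Lamc3 and 2.03 for Itga10. For Lamc3 the 3 antrum libraries were at 14.0, 13.9 and 23.8 CPM, the lesser curvature at 3.29, 23.5 and 2.91, the greater curvature at 0.766, 8.87 and 0.210, and the corpus at 0.870, 4.32 and 1.35. The antrum libraries of Lamc3 lay together, yet its test among sites gave an adjusted p of 0.891.

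The calls by site moved with single libraries, and so did the share of all genes called. In the antrum it was 14.7% with every library, 2.74% without antrum 1 and 19.9% without greater curvature 2. In the greater curvature it was 9.26%, 0.669% without greater curvature 1, 1.43% without normal 1 and 25.1% without greater curvature 2. In the lesser curvature it was 33.6%, 13.0% without lesser curvature 1 and 22.1% without normal 2. In the corpus it was 3.54%, 1.37% without normal 2 and 7.34% without greater curvature 2. In the antrum, 0 members were lower without antrum 1, antrum 3 or normal 3, and 1 without normal 1, normal 2, greater curvature 1, lesser curvature 3, corpus 2 or corpus 3. There, 3 were higher without greater curvature 2, and 1 without antrum 1, normal 1 or normal 2. In the greater curvature, 4 were lower without greater curvature 2 and 0 without any 1 of the normals, antrum 3, greater curvature 1 or 3, lesser curvature 3, corpus 2 or corpus 3. There, 3 were higher without antrum 1, 2 without greater curvature 2, and 0 without greater curvature 1, greater curvature 3 or normal 3. In the lesser curvature, 2 were lower without lesser curvature 1, normal 1 or normal 3, and 1 without lesser curvature 3 or normal 2. There, 0 were higher without lesser curvature 1, lesser curvature 3 or normal 3, and 1 without antrum 3, lesser curvature 2, normal 1 or any 1 of the corpus libraries. In the corpus, 1 was higher without antrum 1 or normal 2 and 1 lower without greater curvature 2.

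The genes that act with integrins and laminins were read from 4 lists, in all tumors against normal. Of all genes tested, 16.2% were called higher and 15.7% lower in that comparison. Of 26 genes of the focal adhesion core, which ties integrins to actin, 2 were higher and 9 lower, with a median log2 fold change of -0.63 against -0.04 for all genes. Flna, the actin crosslinker filamin A, was at 862, 1351 and 1227 CPM in normal tissue and 294 to 470 in the tumors (-1.58 ± 0.15, adjusted p = 0.00053). Lims2 (PINCH-2) was at 19.0 to 35.8 CPM in normal tissue and 2.30 to 6.32 in the tumors (-2.71 ± 0.28, adjusted p = 0.00053). Tns1, tensin 1, was at 323 to 374 CPM in normal tissue and 35.9 to 144 in the tumors (-2.33 ± 0.27, adjusted p = 0.000722). Ilk, the integrin-linked pseudokinase, was at 96.7 to 121 CPM in normal tissue and 55.7 to 90.4 in the tumors (-0.60 ± 0.11, adjusted p = 0.00391), though its difference was -0.01 on the log2(TPM + 1) scale (adjusted p = 0.962). These 4 had the smallest p of the list, and for none of them did the groups overlap in CPM. Of all genes tested, 6.65% had all 12 tumors below the normals in CPM. In TPM all 12 tumors lay below the normals for Flna, Lims2 and Tns1, but for Ilk 2 lay below and 1 above. Smooth muscle is known to be rich in filamin A and tensin 1, and its part in these values was not tested. The 2 higher genes were Parvb and Parvg, the parvins beta and gamma.

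Of 14 basement membrane partners, 3 were higher and 3 lower (16.2% and 15.7% of all genes), with a median of 0.03. Nid2, the nidogen 2 that links laminin to collagen IV, was at 3.67 to 6.37 CPM in normal tissue and 9.55 to 26.2 in the tumors (1.68 ± 0.27, adjusted p = 0.00256). Col4a1 was at 127 to 199 CPM in normal tissue and 249 to 496 in the tumors (1.26 ± 0.24, adjusted p = 0.00422). Col4a2, which encodes the other chain of the common collagen IV, was at 106 to 162 CPM in normal tissue and 141 to 280 in the tumors (0.77 ± 0.21, adjusted p = 0.0164). It missed the threshold when normal 2 (0.69, adjusted p = 0.0773) or normal 3 (0.66, adjusted p = 0.0858) was dropped. Col4a4, a chain of the collagen IV of specialised epithelia, was at 6.02 to 12.6 CPM in normal tissue and 0.105 to 6.09 in the tumors (-2.77 ± 0.69, adjusted p = 0.0123), but not when normal 1 was dropped (-2.34, adjusted p = 0.0646). The other lower genes were Col4a3 and Col4a6.

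Of 7 hemidesmosome components and further laminin receptors, 1 was lower, Dag1, and none was higher. Dag1 encodes dystroglycan, a laminin receptor that is no integrin. It was at 269 to 450 CPM in normal tissue and 70.0 to 321 in the tumors (-0.99 ± 0.33, adjusted p = 0.0399), and its call was lost when any 1 of 10 libraries was left out (adjusted p from 0.0515 to 0.178): normal 1, 2 or 3, antrum 3, greater curvature 1 or 3, lesser curvature 1 or 3, and corpus 2 or 3. On the TPM table it was not called either (adjusted p from 0.250 to 0.339). By edgeR, Dst, the hemidesmosome plakin, gave -0.58 ± 0.22 (adjusted p = 0.0596), Cd151, the tetraspanin partner of alpha 3 and alpha 6, gave -0.85 ± 0.32 (0.0617), and Rpsa, a ribosomal protein also known as a laminin receptor, gave 0.69 ± 0.27 (0.0677). DESeq2 called all 3 of these (adjusted p = 0.0478 for Dst, 0.0441 for Cd151 and 0.0238 for Rpsa). Limma on the TPM table called Rpsa (adjusted p from 0.00930 to 0.0155), and edgeR with the replicate number as a block called Cd151 (0.0457). By edgeR, Dst was called without lesser curvature 1 (adjusted p = 0.0390), corpus 1 (0.0479) or greater curvature 2 (0.0175). Cd151 was called without corpus 1 (0.0442), greater curvature 2 (0.0318) or lesser curvature 2 (0.0421), and Rpsa without corpus 1 (0.0482), antrum 2 (0.0411) or greater curvature 2 (0.0248). Of 24 alternatives, 6 called Dst, 6 called Cd151 and 8 called Rpsa. Over them the log2 fold change of Dst ran from -0.70 to 0.02.

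Of 21 other integrin ligands, 4 were higher and 1 lower (16.2% and 15.7% of all genes), with a median of 0.72. Vcam1, the ligand of alpha 4 and alpha 9 integrins, was at 16.1, 9.51 and 12.9 CPM in normal tissue and 18.2 to 74.8 in the tumors (1.43 ± 0.40, adjusted p = 0.0199). It missed the threshold when normal 2 (1.26, adjusted p = 0.0897) or normal 3 (1.44, adjusted p = 0.0727) was dropped. The fibrinogen chain Fgb, a ligand of the platelet and beta 2 integrins, had 3, 0 and 3 counts in normal tissue and 24 to 452 in the tumors (adjusted p = 0.00765). Fgg had 3, 0 and 0 counts in normal tissue and 1 to 120 in the tumors (adjusted p = 0.0221), but not when normal 2 (0.0815) or normal 3 (0.0864) was dropped. The remaining fibrinogen chain, Fga, was the other higher gene. Madcam1, the mucosal ligand of alpha 4 beta 7, was at 4.26, 1.05 and 2.68 CPM in normal tissue and 0.382 to 1.57 in the tumors (-1.59 ± 0.39, adjusted p = 0.0117), but not when normal 1 was dropped (-1.08, adjusted p = 0.0996) nor on the TPM table (adjusted p from 0.141 to 0.181).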

How the data were processed

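Bulk RNA of 15 mouse stomach libraries in 5 groups of 3 was read from deposited tables, with groups taken from the sample titles. The deposited count table holds whole-number estimated counts per gene, per the file headers and values, and a second deposited table, headed as FPKM by the authors, holds TPM, since each column sums to 1e+06. Per the submitters' processing notes the tools were bcl2fastq 2.19, kallisto 0.44.0, sleuth and DESeq2 with GRCm38.p6. No source used here gives their order or settings. The estimated counts were tested as deposited with edgeR 4.0.16 (R 4.3.3, quasi-likelihood, robust, TMM, filterByExpr minimum 10, all 5 groups in 1 fit), with Benjamini-Hochberg adjustment over 16224 genes. Alternatives were DESeq2 1.42.0, limma 3.58.1 on log2(TPM + 1) and log2(TPM + 0.1), filters, subsets and left-out libraries. Total counts per library ran from 7957165 to 21564972. The script was tested on simulated data. Whether library numbers pair the groups is not settled. Deviations of same-numbered libraries correlated over 0.1 in all 3 pairs of normal with antrum (0.46, 0.26 and 0.18) and with lesser curvature (0.37, 0.30 and 0.14). The same held for antrum with lesser curvature (0.66, 0.63 and 0.39) and for greater with lesser curvature (0.41, 0.55 and 0.16). It did not hold for normal with greater curvature (0.43, 0.32 and 0.088) or corpus (lowest -0.26). The fit without the block was kept, and the counts with it are given below. Libraries of 1 group differed beyond sampling noise.

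The members, lists and ratios were chosen with earlier results of these data known. The text names members called in all tumors or among sites, the epithelial laminin and integrin chains and the beta 2 integrin chains, and from each partner list the 4 genes with the smallest p. Any other gene named was chosen after its values were seen. Coordinates and exon overlaps are from GENCODE M21 (GRCm38), and promoters from RefSeq (GRCm38.p6). Exons of 12 members overlap another gene. The values of 1 member are not reported here.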

Additional observations from a re-analysis of the deposited data

How the results depend on the processing

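In all tumors against normal, Itga1 was called under each of the 21 alternatives run on the counts with edgeR or DESeq2 and under none of the 3 on the TPM table. The sign turned, without a call, for Itga9 on log2(TPM + 1) (0.070, with and without the filter) and log2(TPM + 0.1) (0.081), and for Itgb1 on the same scales (0.20 in each). The median of all genes was shifted up by 0.43 on log2(TPM + 1) with the filter, by 0.10 without it, and by 0.52 on log2(TPM + 0.1). The cause of the other changes below was not tested.

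Counts of members, higher and lower, stood at 5 and 6 in all tumors, 0 and 2 in the antrum, 1 and 1 in the greater curvature, 2 and 4 in the lesser curvature and 0 and 0 in the corpus. DESeq2 gave 8 and 7 in all tumors, 2 and 2 in the antrum, 7 and 3 in the greater curvature, 4 and 5 in the lesser curvature and 4 and 3 in the corpus. Of all genes it called 41.2%, 27.6%, 23.7%, 45.3% and 13.8% in that order, so it called more genes of every kind than edgeR. edgeR with DESeq2's size factors gave 1 higher in the antrum and 1 higher in the lesser curvature (14.9% and 33.8% of all genes called in either direction). With no filter on low counts there were 3 and 4 in all tumors, 1 lower in the antrum, 0 lower in the greater curvature and 0 higher in the lesser curvature. Of all genes 18.9%, 6.77%, 3.99% and 18.6% were called in that order, in either direction. With only the groups compared in the fit there were 1 and 0 in the antrum, 0 and 0 in the greater curvature, 1 higher in the lesser curvature and 2 higher in the corpus, with 4 genes called in the greater curvature (1503 otherwise). In the antrum, lesser curvature and corpus that fit called 6.01%, 34.4% and 2.02% of all genes.

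limma on log2(TPM + 1) gave 0 lower in any comparison, and 7 higher in all tumors, 3 in the antrum, 6 in the greater curvature, 5 in the lesser curvature and 1 in the corpus. Of all genes it called 40.9%, 26.3%, 20.5%, 47.0% and 3.24% in that order, in either direction. On log2(TPM + 0.1) it gave 0 lower, and 6, 5, 7, 5 and 3 higher in that order, against 41.7%, 27.8%, 22.5%, 47.0% and 5.77% of all genes. With no filter, on log2(TPM + 1), it gave 0 lower, and 6, 3, 5, 5 and 1 higher, against 24.0%, 13.5%, 8.63%, 28.9% and 0.478% of all genes.

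Without greater curvature 2 and corpus 1 together there were 5 and 9 in all tumors, 2 and 3 in the antrum, 2 and 3 in the greater curvature and 0 and 1 in the corpus. Without antrum 1 and lesser curvature 1 together there were 0 lower in the antrum, 3 higher in the greater curvature and 2 lower in the lesser curvature. Leaving out 1 library at a time gave 0 to 6 higher and 1 to 7 lower in all tumors, 0 to 3 and 0 to 3 in the antrum, 0 to 3 and 0 to 4 in the greater curvature, 0 to 3 and 1 to 5 in the lesser curvature, and 0 to 1 in each direction in the corpus. The share of all genes called moved with single libraries too, as given above. The test among sites called 0 members under every setting.

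With the replicate number as a block, the counts of members were 5 and 6 in all tumors, 2 and 5 in the lesser curvature, and otherwise as without it. Of all genes 35.4% (5747 genes) were called in all tumors and 39.3% in the lesser curvature. Itgad lost its call (adjusted p = 0.0638) and Itgax gained one (0.0162). Libraries with the same number correlated at -0.57 to 0.69 in their deviations from the group means, 17 of 30 pairs over 0.1. The median was 0.17 for same-numbered pairs and -0.07 for the others, and 10 of 15 libraries correlated best with their own number. All 3 pairs were over 0.1 for normal with antrum, and for lesser curvature with normal, with antrum and with greater curvature. Of the pairs with corpus, only that of greater curvature 3 was over 0.1 (0.42). The numbers were not taken as pairs over all 5 groups, and a shared animal or batch behind them was not tested. With 3 normals, depth limits what can be said of the low members: Itgad had 4 normal counts in all.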
